A study of Mus musculus with 20 samples.

Results

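Epididymal fat of mice fed a high-fat diet for 14 days was compared with epididymal fat of mice on normal chow (day 0), gene by gene. The comparison held 8 of the study's 20 RNA-seq libraries, 4 from high-fat day 14 and 4 from chow, picked by diet and day alone. Of 39179 Ensembl gene IDs in the deposited count table, 15254 passed a filter on low counts and were tested. All mice were males of the inbred laboratory strain C57BL6/J, the labels name no engineered allele, and they describe the libraries as biological replicates without saying whether animals were pooled. The study's other groups had 2, 4 or 6 days of the same diet, with 4 libraries each, and entered only the estimate of the spread and the comparisons with day 4 and day 6. The study's title names its question, which is how glucose uptake, insulin signalling and autophagy in fat cells fare under high-fat feeding.

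Epididymal fat is a visceral depot that stores surplus energy as triglyceride, and in mice on a high-fat diet its fat cells enlarge early. Fat cells take up glucose through the insulin-responsive transporter GLUT4, which waits in intracellular vesicles, and can turn that glucose into new fatty acids, a route called lipogenesis that dietary fat is known to restrain. Enlarging fat cells make more leptin, build caveolae and surround themselves with basement membrane, and autophagy, the delivery of cell parts to lysosomes, is active in them. The tissue also holds vessels, fibroblasts, macrophages, lymphocytes and a covering mesothelium. In such bulk samples, fewer cells of a type and less RNA per cell cannot be told apart.

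After 14 days of high-fat diet 134 genes were higher than on chow and 46 were lower, together 180 of 15254 tested genes or 1.18%, with 0.878% called higher and 0.302% called lower. A gene was called when its Benjamini-Hochberg adjusted p in edgeR's quasi-likelihood test was below 0.05. Levels are given in CPM, counts scaled to a common library total with TMM factors. The genes that rose did so by a median log2 change of 0.69, within 0.26 to 2.37, and those that fell had a median of -1.29. Of the 180 genes, 172 had no overlap between the high-fat day 14 and the chow libraries, which was true of 9.93% of all tested genes. A log2 change beyond 1 in size was seen in 64 of them. With library totals as the only scaling the median log2 change of all genes moved to -0.10, and 65 genes were then higher and 78 lower. The count also rested on single libraries: it was 482 when chow replicate 1 was left out, 112 when chow replicate 2 was, 99 and 55 for chow replicates 3 and 4, and 76 and 45 when day 14 replicates 2 and 3 were. In all 8 fits that left out 1 library, 39 genes kept their call, 35 higher and 4 lower. Some of the 39 lost their call under other settings. In a fit of the 8 compared libraries alone these included Ptpn1, Ehd2, Pth1r, Pigu, Iffo2, Ltbp3, Anxa5, Clic4, Twf2 and F730043M19Rik. Without chow replicate 4 and day 2 replicate 1 these included Ltbp3, Anxa5, Anxa6, Clic4, Twf2, Cdc42ep1, Myo1c, Ramp2, Sucnr1 and F730043M19Rik. Those of the 39 that the rule in the methods does not name were picked after their values were seen.

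**Figure D1:**
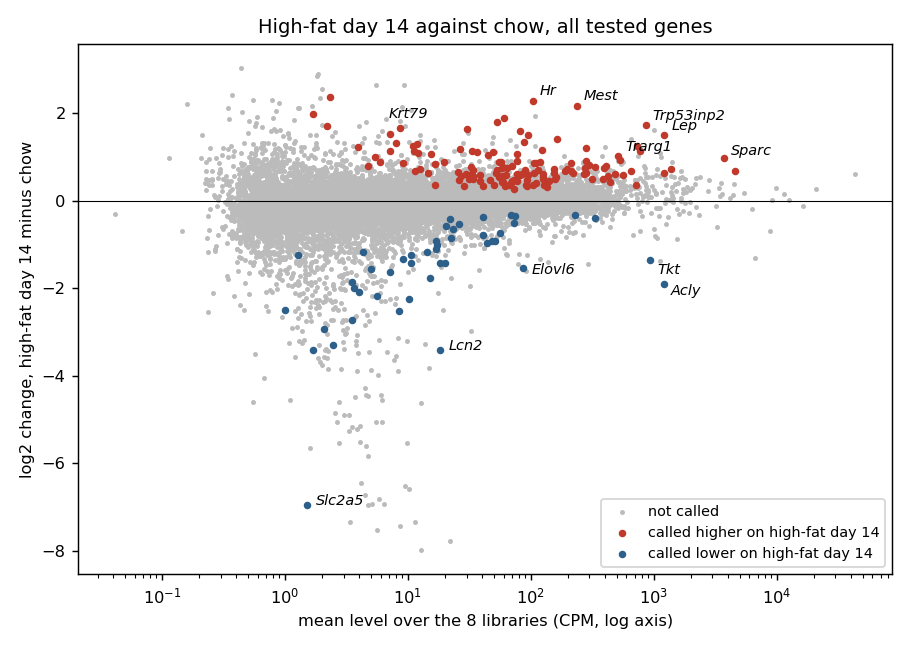
Each point is 1 of 15254 tested genes, with its mean level over the 8 libraries on the x axis (CPM, log scale) and its log2 change, high-fat day 14 minus chow, on the y axis. The 134 red points are genes called higher on high-fat day 14 and the 46 blue points genes called lower, and the blue point at the bottom is Slc2a5, which had 1 read in all day 14 libraries together and whose fitted value is therefore imprecise.

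The totals behind these values were 6724707 to 24581101 counts per library on high-fat day 14 and 8279454 to 38832429 on chow. Log2 CPM correlated across genes at 0.970 to 0.989 among the day 14 libraries and at 0.978 to 0.986 among chow replicates 1 to 3, a description across genes and not over replicates. Chow replicate 4 was set off from its group, correlating at 0.954 to 0.957 with the other chow libraries. Genes of the epididymis and testis, the organs beside this fat pad, summed to 3.99 to 16.6 CPM on day 14, and on chow to 344 CPM in replicate 4 and at most 25.5 CPM in replicates 1 to 3. The sum in chow replicate 4 came mostly from Lrp2, an endocytic receptor of epithelia (194 CPM), and Cuzd1, an epithelial secretory gene (80.1 CPM). In the same library Crisp1 (0.0312 CPM) and Lcn5 (0 CPM), which define the epididymis, were at or near 0. Adam7, also on this list, had 1.46 CPM in chow replicate 4 and 0.622 CPM in day 14 replicate 4. It had 0 CPM in every other chow and day 14 library. The tissue behind these reads was not tested. The part of chow replicate 4 in the genes called lower was not tested beyond leaving the library out. Fat cell markers were present throughout, since all 20 on the list were tested and summed to 65090 to 86430 CPM on day 14 and 53390 to 86000 CPM on chow.

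Promoters are shown for 4 genes on which the account below turns: Trp53inp2, an autophagy gene with a steep rise, and Tkt, Acly and Elovl6, which serve lipogenesis and were called lower. Of the 8 fits without 1 library, the call was lost in 7 for Acly and in all 8 for Elovl6. Each window runs from 250 bases before to 50 after the start of the gene, taken from RefSeq on GRCm38.p6. Capitals mark matches on either strand to CCAAT (the CCAAT box) or GGGCGG (the GC box); CACGTG (an E-box) and TATAAA (the TATA box) were also searched.

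Trp53inp2, chr2:155381606-155381905 (+ strand): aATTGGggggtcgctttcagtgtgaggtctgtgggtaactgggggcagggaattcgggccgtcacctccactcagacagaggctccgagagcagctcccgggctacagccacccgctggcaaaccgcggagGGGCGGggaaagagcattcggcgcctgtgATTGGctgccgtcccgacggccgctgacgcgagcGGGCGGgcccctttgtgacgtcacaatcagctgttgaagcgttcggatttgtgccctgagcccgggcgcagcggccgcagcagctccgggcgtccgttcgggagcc
Tkt, chr14:30548881-30549180 (+ strand): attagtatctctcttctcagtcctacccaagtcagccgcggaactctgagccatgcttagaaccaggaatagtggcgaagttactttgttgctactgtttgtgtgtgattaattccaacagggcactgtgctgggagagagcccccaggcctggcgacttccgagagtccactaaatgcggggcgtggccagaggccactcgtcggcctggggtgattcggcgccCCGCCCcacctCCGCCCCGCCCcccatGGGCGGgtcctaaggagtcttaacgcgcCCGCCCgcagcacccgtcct
Acly, chr11:100527951-100528250 (- strand): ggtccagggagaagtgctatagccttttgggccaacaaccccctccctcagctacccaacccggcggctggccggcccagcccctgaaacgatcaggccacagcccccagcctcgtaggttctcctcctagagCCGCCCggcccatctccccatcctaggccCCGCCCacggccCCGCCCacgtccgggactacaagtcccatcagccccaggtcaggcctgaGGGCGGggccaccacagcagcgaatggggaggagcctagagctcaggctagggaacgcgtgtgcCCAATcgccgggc
Elovl6, chr3:129532136-129532435 (+ strand): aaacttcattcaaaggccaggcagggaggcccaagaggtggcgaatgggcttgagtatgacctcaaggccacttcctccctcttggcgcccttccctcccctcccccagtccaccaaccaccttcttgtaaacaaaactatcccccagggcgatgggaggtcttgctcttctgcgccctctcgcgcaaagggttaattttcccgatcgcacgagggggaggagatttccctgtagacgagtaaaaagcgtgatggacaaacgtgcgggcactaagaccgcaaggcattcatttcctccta

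The window of Trp53inp2 held 2 CCAAT boxes and 2 GC boxes. Tkt had 5 GC boxes, of which 2 overlapped each other, Acly had 4 GC boxes and 1 CCAAT box, and Elovl6 had no match. Neither CACGTG nor TATAAA was found in any of these windows, and other forms of the E-box were not searched. Over 32851 promoter windows of this length, 37.4% held CCAAT, 35.7% GGGCGG, 13.6% TATAAA and 7.15% CACGTG. These letters are a description and say nothing of which factors bind.

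Autophagy genes were led by Trp53inp2, which encodes a nuclear protein that moves to forming autophagosomes and binds the LC3 family. It measured 1367, 1022, 1487 and 1396 CPM in the high-fat day 14 libraries, against 473, 337, 367 and 422 CPM in the chow libraries. The lowest high-fat library stood well above the highest chow library. Its log2 change was 1.72 ± 0.20 (SE; edgeR adjusted p = 0.00053). Map1lc3a, which encodes an LC3 protein that coats autophagosomes, measured 188, 204, 200 and 175 CPM on day 14 and 122, 124, 121 and 96.8 CPM on chow, again with no overlap. Its log2 change was 0.73 ± 0.11 (SE; edgeR adjusted p = 0.00378). Ulk2, a kinase that starts autophagy, had 116 to 118 CPM on day 14 and 88.5 to 96.1 CPM on chow, and rose by 0.35 ± 0.07 on the log2 scale (edgeR adjusted p = 0.0257), a call that was lost without chow replicate 4 (edgeR adjusted p = 0.0898) or day 14 replicate 2 or 3. The other 26 of 29 autophagy genes did not pass the test, and the median log2 change of the list was 0.04, against -0.01 over all tested genes. So 3 of 29 were called higher and none lower.

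Trp53inp2 and Map1lc3a are near neighbours on mouse chromosome 2. In RefSeq's gene order on GRCm38.p6, Pigu is the only protein-coding gene between them, and it encodes a subunit of the enzyme that attaches lipid anchors to proteins. Pigu also rose, with 35.9 to 45.1 CPM on day 14 and 25.6 to 29.3 CPM on chow and a log2 change of 0.48 ± 0.08 (SE; edgeR adjusted p = 0.00807). All 3 genes of this run kept their call in each of the 8 fits without 1 library. Pigu lost it with library size as the only scaling and in the fit of the 8 compared libraries alone. The next gene on the outer side of Map1lc3a, the dynein light chain gene Dynlrb1, had a log2 change of 0.33 ± 0.10 and was not called (edgeR adjusted p = 0.0825), nor was the next beyond Trp53inp2, the coactivator gene Ncoa6 (edgeR adjusted p = 0.963). This run was noticed after the values were seen. Reads that run past a gene's end into its neighbour cannot be assigned by strand here, since no strand setting is given in the sources used here.

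Some genes of the GLUT4 vesicle rose while the transporter's own RNA did not pass the test. Trarg1, which encodes a membrane protein of these vesicles, measured 729, 604, 746 and 651 CPM on high-fat day 14, against 372, 341, 359 and 278 CPM on chow. All day 14 libraries lay above all chow libraries, and the log2 change was 1.02 ± 0.12 (SE; edgeR adjusted p = 0.00053). Myo1c, a motor that helps the vesicles reach the cell membrane, had 721, 674, 692 and 643 CPM on day 14 and 506, 463, 443 and 396 CPM on chow, and rose by 0.59 ± 0.10 (log2, SE; edgeR adjusted p = 0.00862). Ehd2, an ATPase at the necks of caveolae that is also placed in GLUT4 traffic, had 1671, 1563, 1904 and 1708 CPM on day 14 and 1255, 959, 1068 and 875 CPM on chow. It rose by 0.72 ± 0.12 (log2, SE; edgeR adjusted p = 0.00754), again without overlap. These 3 were the called members among 18 genes of glucose transport and GLUT4 vesicles, against 0.878% called higher over all tested genes. None was called lower, 10 of the 18 had negative changes, and the list's median log2 change was -0.02. Slc2a4, which encodes GLUT4, measured 179, 181, 239 and 207 CPM on day 14 and 275, 190, 224 and 185 CPM on chow. The groups overlapped, and its log2 change was -0.12 ± 0.17 (SE; edgeR adjusted p = 0.773).

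Among 27 genes of insulin signalling 2 were called higher and none lower. Ptpn1, which encodes the phosphatase PTP1B that removes phosphate from the insulin receptor, measured 59.2, 69.4, 67.9 and 80.4 CPM on high-fat day 14, against 48.4, 47.2, 49.9 and 48.1 CPM on chow. The chow values were tightly grouped and every day 14 value was above them, with a log2 change of 0.51 ± 0.09 (SE; edgeR adjusted p = 0.00862). Deptor, an inhibitory partner of mTOR, had 226, 261, 270 and 289 CPM on day 14 and 185, 145, 140 and 187 CPM on chow, and rose by 0.67 ± 0.14 (log2, SE; edgeR adjusted p = 0.0289). That call did not hold in 5 of the 8 fits without 1 library, with an edgeR adjusted p of up to 0.0826. The receptor Insr had a log2 change of -0.26 ± 0.12, the docking proteins Irs1 and Irs2 had -0.16 ± 0.23 and 0.42 ± 0.33, and the kinase Akt2 had 0.40 ± 0.13, none of them called (edgeR adjusted p = 0.238, 0.778, 0.545 and 0.114). Irs3, a docking protein of rodent fat cells that was not on the list and was picked after its values were seen, had 83.6, 76.0, 83.1 and 57.7 CPM on day 14 and 60.3, 40.3, 43.7 and 32.3 CPM on chow. Its lowest day 14 library lay below chow replicate 1 yet above the rest of the chow libraries, and the log2 change of 0.77 ± 0.17 (SE; edgeR adjusted p = 0.0346) was lost in 6 of 8 such fits, to 0.122 without chow replicate 4. The median log2 change of the insulin signalling list was 0.10.

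**Figure D2:**
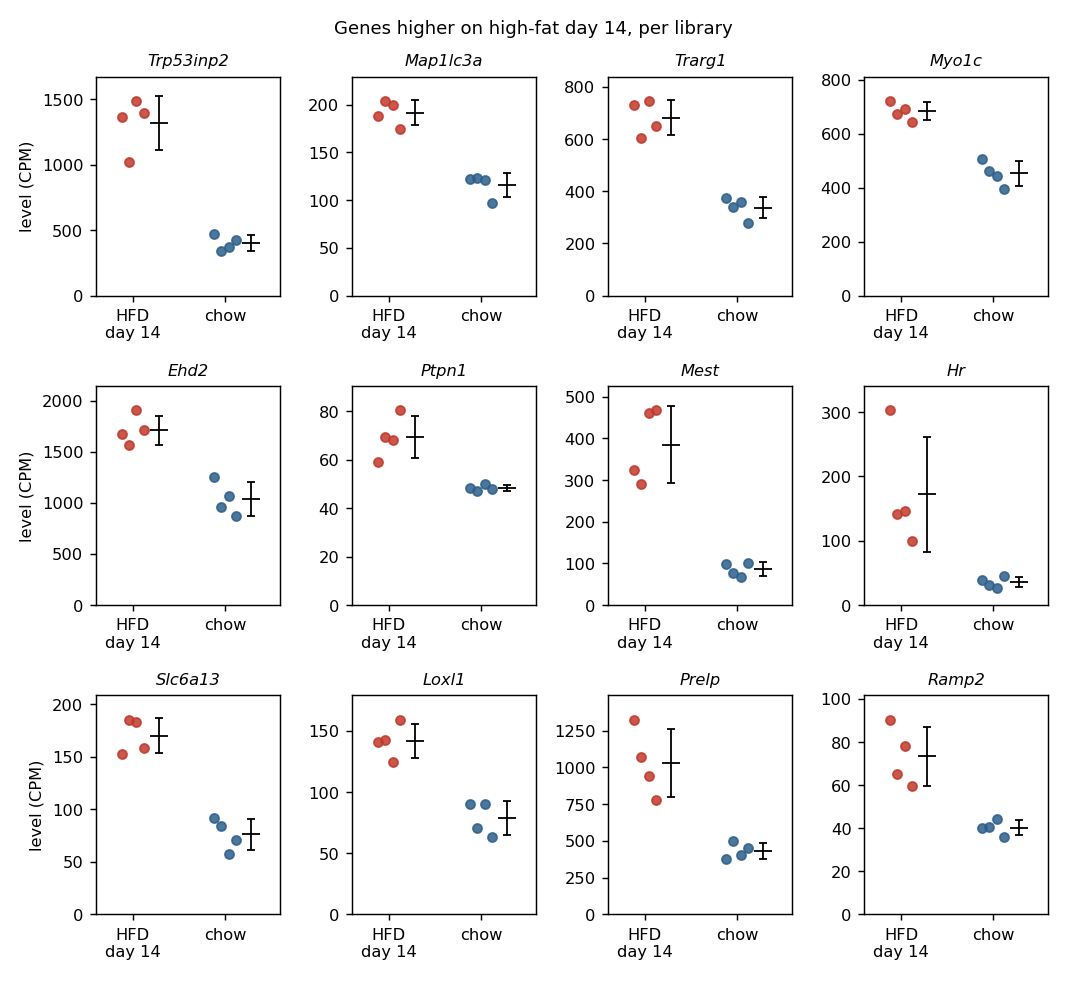
Levels (CPM, linear axes from 0) of 12 genes in each library, with high-fat day 14 (HFD, red) left of chow (blue) and the mean ± SD over 4 libraries as a bar beside each group. The groups do not overlap in any panel, and Hr lies at 99.3 to 303 CPM on day 14.

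Markers of fat expansion formed the list with the highest median among the metabolic lists, 0.94 over 20 genes. Of these 18 were positive and 4 called higher, with 2 called higher without chow replicate 4. The lists were chosen with earlier results of these data known, so this rank is a description only. Mest, an imprinted gene known to rise as fat cells enlarge, measured 324, 290, 461 and 468 CPM on high-fat day 14 and 98.1, 76.1, 67.3 and 101 CPM on chow. The gap between the groups was wider than either group's own spread, and the log2 change was 2.17 ± 0.38 (SE; edgeR adjusted p = 0.00862). Leptin (Lep), the hormone that reports fat stores to the brain, measured 1939, 1463, 2254 and 1502 CPM on day 14 and 903, 547, 374 and 726 CPM on chow. No library overlapped, and its log2 change was 1.49 ± 0.32 (SE; edgeR adjusted p = 0.0289). The call was lost without chow replicate 2, 3 or 4, or day 14 replicate 1 or 3, with an edgeR adjusted p of up to 0.0996 and of 0.0763 without chow replicate 4. Paqr9, of the adiponectin receptor family, had 73.3, 60.9, 158 and 92.2 CPM on day 14 and 42.7, 16, 26.7 and 16.9 CPM on chow, and rose by 1.9 ± 0.38 (log2, SE; edgeR adjusted p = 0.0211), a call lost in 4 of those fits. The fourth member called was Trarg1, described above. Cav1, the main caveola protein and also on the list, had a log2 change of 0.41 ± 0.12 and was not called (edgeR adjusted p = 0.0821). Adiponectin (Adipoq), a hormone of fat cells that aids insulin action, measured 3768, 4419, 3338 and 3488 CPM on day 14 and 2746, 4128, 4142 and 2509 CPM on chow, with overlap and a log2 change of 0.15 ± 0.31 (edgeR adjusted p = 0.858).

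Lipogenesis held falls at steps that turn glucose into fatty acids, while the median of the list was near 0. Of 25 genes 3 fell and none rose, the median log2 change was -0.06, and without chow replicate 4 only Tkt kept its call. Tkt, transketolase of the pentose phosphate route that feeds NADPH production, measured 437, 427, 739 and 513 CPM on high-fat day 14, against 1838, 1274, 1085 and 1210 CPM on chow. The groups stood apart, and its log2 change was -1.35 ± 0.22 (SE; edgeR adjusted p = 0.00653). Acly, which splits citrate to supply acetyl-CoA for fatty acid synthesis, measured 354, 388, 792 and 505 CPM on day 14 and 3829, 1296, 1009 and 1469 CPM on chow. Chow replicate 1 was far above the other chow libraries, which themselves lay above all day 14 libraries. The log2 change of Acly was -1.9 ± 0.46 (SE; edgeR adjusted p = 0.0497), and the call was lost in 7 of the 8 fits without 1 library, all but the fit without chow replicate 3, with an edgeR adjusted p of up to 0.125. Elovl6, which lengthens newly made palmitate, had 33.5, 30.7, 71.7 and 41.5 CPM on day 14 and 204, 93.7, 103 and 113 CPM on chow. It fell by 1.55 ± 0.37 on the log2 scale (edgeR adjusted p = 0.0486), without overlap, yet the call was lost in all 8 of those fits, with an edgeR adjusted p of up to 0.129.

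The central enzymes of the route had negative changes that did not pass the test. Acaca, which makes malonyl-CoA, had 381, 523, 867 and 742 CPM on high-fat day 14 and 2281, 1489, 1391 and 1381 CPM on chow, with no overlap, a log2 change of -1.38 ± 0.36 and an edgeR adjusted p = 0.0634. Fasn, the fatty acid synthase, had 2341, 2097, 7457 and 3421 CPM on day 14 and 15407, 6751, 8451 and 7269 CPM on chow. Day 14 replicate 3 reached into the chow range, and the log2 change was -1.31 ± 0.47 (SE; edgeR adjusted p = 0.15). In contrast to these, the desaturase Scd1 had 38598, 44927, 53762 and 73388 CPM on day 14 and 40788, 33183, 43480 and 21826 CPM on chow, which overlap, with a log2 change of 0.60 ± 0.26 (edgeR adjusted p = 0.229). Srebf1, which encodes the lipogenic regulator SREBP-1, had a log2 change of 0.40 ± 0.17 (edgeR adjusted p = 0.234). Day 14 replicate 3 was the highest day 14 library for Tkt, Acly, Elovl6, Acaca and Fasn alike. No gene was called among 25 of cholesterol synthesis and uptake (median 0.19, with 22 positive) or among 28 of fatty acid uptake and triglyceride synthesis (median 0.10).

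Sugar handling was marked by the fructose transporter gene Slc2a5, which was nearly silent after the diet. It had 1, 0, 0 and 0 reads in the day 14 libraries, or 0.0385 CPM in replicate 1, against 4.42, 2.09, 0.506 and 4.99 CPM in the chow libraries. Over the group there was 1 read on day 14 and 274 on chow, a ratio of chow over day 14 of 161 in CPM with a 95% counting interval of 28.6 to 6380, which covers counting error only. The edgeR adjusted p was 0.00649 and stayed below the threshold in all 8 fits without 1 library, but limma-voom did not call it. On days 2, 4 and 6 Slc2a5 averaged 0.206, 0.209 and 0.380 CPM, so its chow level helped it pass the low-count filter. Pdk1, a kinase that keeps pyruvate out of the citrate cycle, had 30, 33.5, 44.5 and 33.1 CPM on day 14 and 75.7, 55.7, 71.1 and 63.3 CPM on chow. It fell by 0.92 ± 0.16 on the log2 scale (edgeR adjusted p = 0.00878), kept its call in all 8 fits, and was the only called gene among 29 of the citrate cycle and pyruvate entry. No gene was called among 21 of glycolysis, where the median log2 change was 0.01.

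**Figure D3:**
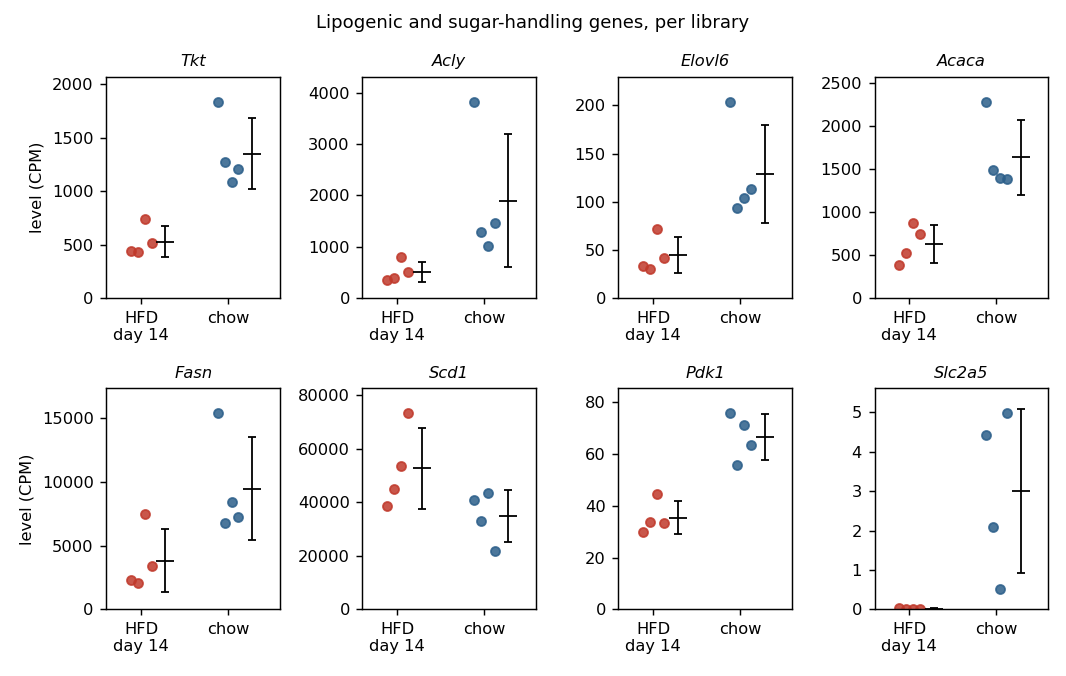
Levels (CPM, linear axes from 0) of lipogenic and sugar-handling genes in each library, with high-fat day 14 (HFD, red) left of chow (blue) and the mean ± SD over 4 libraries as a bar beside each group. Tkt, Acly, Elovl6, Pdk1 and Slc2a5 were called lower, while Acaca (edgeR adjusted p = 0.0634), Fasn (0.15) and Scd1 (0.229) were not called.

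Lipid droplet genes held 2 rises among 24, with a median of 0.25 and no fall. Plin4, which coats growing lipid droplets, measured 5634, 5694, 5394 and 5908 CPM on high-fat day 14 and 3364, 4017, 3809 and 2893 CPM on chow, a clear separation, and rose by 0.68 ± 0.14 (log2, SE; edgeR adjusted p = 0.0248). Hilpda, an inhibitor of the lipase ATGL, had 17.5, 13.6, 22.9 and 12.6 CPM on day 14 and 7.04, 8.25, 5.64 and 6.57 CPM on chow, and rose by 1.30 ± 0.27 (log2, SE; edgeR adjusted p = 0.0257). Both calls were lost without chow replicate 4, where the edgeR adjusted p was 0.103 for Plin4 and 0.0898 for Hilpda, and in 3 further fits each. Ucp3, a mitochondrial carrier that rises with fatty acid supply, was the only called gene of 27 in fatty acid oxidation, with 44.3 to 72.0 CPM on day 14 and 25.7 to 33.2 CPM on chow (log2 change 1.05 ± 0.23, edgeR adjusted p = 0.0333, and 0.117 without chow replicate 4). No gene was called among 72 nuclear genes of oxidative phosphorylation (median -0.02) or 20 of branched-chain amino acid breakdown (median 0.04). Of 15 mitochondrially encoded RNAs the ribosomal RNA mt-Rnr2 rose (0.62 ± 0.14, edgeR adjusted p = 0.0408), and lost its call in 7 of 8 fits without 1 library. Fads3, of the front-end desaturase family, was a steadier rise, with 602 to 793 CPM on day 14 and 316 to 402 CPM on chow (0.93 ± 0.14, edgeR adjusted p = 0.00378).

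Extracellular matrix genes rose in part. Among 33 matrix genes other than collagens 3 rose and none fell, with a median of 0.30. Prelp, a leucine-rich proteoglycan that anchors basement membranes to collagen, measured 1325, 1068, 943 and 777 CPM on high-fat day 14 and 378, 501, 404 and 453 CPM on chow, without overlap, and rose by 1.25 ± 0.22 (log2, SE; edgeR adjusted p = 0.00862). Sparc, a collagen-binding matrix protein of growing fat, measured 5456, 5185, 4817 and 4095 CPM on day 14 and 2699, 2315, 2762 and 2267 CPM on chow, and rose by 0.96 ± 0.20 (log2, SE; edgeR adjusted p = 0.0245). Nid1, which joins laminin to collagen in basement membranes, had 1249 to 1602 CPM on day 14 and 850 to 1025 CPM on chow and rose by 0.62 ± 0.13. Without chow replicate 4, Sparc (edgeR adjusted p = 0.0898) and Nid1 (edgeR adjusted p = 0.101) lost their calls and Prelp kept its own. No collagen was called among 27, although the list's median was 0.44: Col3a1 had a log2 change of 0.68 ± 0.21 (edgeR adjusted p = 0.0979), Col4a1 of 0.49 ± 0.23 (edgeR adjusted p = 0.265) and Col6a3 of 0.73 ± 0.31 (edgeR adjusted p = 0.218), each without overlap between the groups. The day 14 libraries were split over these lists: in the mean over the matrix genes other than collagens, replicates 1 and 2 lay 0.60 and 0.61 above the chow mean on the log2 scale, and replicates 3 and 4 both lay 0.14 below it, while the chow libraries lay between -0.06 and 0.09. Markers of fibroblasts and progenitors moved the same way, at 0.51, 0.56, -0.10 and -0.26 in day 14 replicates 1 to 4 and between -0.15 and 0.08 on chow. The collagens lay at 0.39, 0.24, -0.002 and -0.06 on day 14 and between -0.28 and 0.28 on chow. The part of the fibroblast markers in the matrix results was not tested.

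Processing and anchoring of the matrix added genes that kept their call in all 8 fits without 1 library. Loxl1, which crosslinks elastin, had 141, 142, 124 and 159 CPM on high-fat day 14 and 90.4, 70.7, 89.8 and 63.4 CPM on chow (log2 change 0.85 ± 0.13, edgeR adjusted p = 0.00401), and was the only called gene of 27 in collagen processing. Creb3l1, a membrane-bound transcription factor of secretory cells that drives collagen production in bone, had 51.7, 50.4, 36.7 and 42.1 CPM on day 14 and 25.5, 20.1, 18.4 and 19.5 CPM on chow (1.12 ± 0.17, edgeR adjusted p = 0.00401). Sod3, the superoxide dismutase of the extracellular space, had 423 to 544 CPM on day 14 and 273 to 311 CPM on chow (0.75 ± 0.11, edgeR adjusted p = 0.00318). Lamb3, a laminin chain, had 7.46 to 12.7 CPM on day 14 and 4.18 to 4.96 CPM on chow (1.14 ± 0.20, edgeR adjusted p = 0.00911). Ltbp3, which stores latent TGF-beta in the matrix, had 385 to 506 CPM on day 14 and 309 to 345 CPM on chow (0.49 ± 0.08, edgeR adjusted p = 0.00754), the only called gene of 23 in the TGF-beta and activin list. In none of these did the groups overlap.

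Further genes also kept their call in all 8 fits without 1 library, though some lost it under the other settings given above. Emp1, a small membrane protein, had 993, 872, 1273 and 1118 CPM on high-fat day 14 and 593, 436, 480 and 449 CPM on chow, and rose by 1.12 ± 0.18 (log2, SE; edgeR adjusted p = 0.00623). The annexins Anxa5 and Anxa6, calcium-dependent membrane binders, had 494 to 520 and 733 to 864 CPM on day 14 and 290 to 396 and 454 to 567 CPM on chow. Anxa5 rose by 0.57 ± 0.10 and Anxa6 by 0.69 ± 0.12 (log2, SE). Clic4, an intracellular chloride channel protein, rose by 0.60 ± 0.11, Cdc42ep1, an effector of the GTPase Cdc42, by 0.85 ± 0.15, the actin regulator Twf2 by 0.47 ± 0.08, and Rhbdf1, an inactive rhomboid that escorts ADAM17, by 0.59 ± 0.09. Among 9 tested caveola genes Ehd2 was the only one called, and the list's median was 0.41. Gpld1, a phospholipase that cuts lipid-anchored proteins from membranes, rose by 0.61 ± 0.10, with 35.2 to 36.9 CPM on day 14 and 21.5 to 26.8 CPM on chow. The scaffold gene Mpp7 rose by 0.59 ± 0.10. The edgeR adjusted p of these 9 genes lay between 0.003 and 0.00978.

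Other rises that kept their call in all 8 fits included transporters, receptors and regulators. Slc6a13, a carrier of GABA and taurine, had 153, 185, 183 and 158 CPM on high-fat day 14 and 91.6, 83.7, 57.9 and 71.1 CPM on chow (log2 change 1.16 ± 0.14, edgeR adjusted p = 0.00053). Hr, a nuclear corepressor known from hair growth, had 303, 141, 146 and 99.3 CPM on day 14 and 39, 31.4, 27.1 and 44.4 CPM on chow. Its day 14 libraries varied widely, yet the lowest was above every chow library, and it rose by 2.28 ± 0.33 (log2, SE; edgeR adjusted p = 0.003). Noct, nocturnin, an enzyme of circadian and lipid physiology, had 45.6, 44.3, 48.1 and 61.4 CPM on day 14 and 25.1, 24.9, 19.2 and 23.8 CPM on chow (1.10 ± 0.15, edgeR adjusted p = 0.00167). Ramp2, which lets the calcitonin receptor-like receptor bind adrenomedullin and is known from endothelium, had 90.3, 65.4, 78.3 and 59.5 CPM on day 14 and 40.1, 40.7, 44.3 and 35.9 CPM on chow (0.87 ± 0.16, edgeR adjusted p = 0.00978). It was the only called gene of 20 endothelial markers, whose median was 0.09. Sucnr1, the succinate receptor, had 105 to 113 CPM on day 14 and 62.6 to 72.9 CPM on chow (0.69 ± 0.13, edgeR adjusted p = 0.0106). The keratin gene Krt79 rose by 1.65 ± 0.23 and the co-chaperone gene Dnajb4 by 0.74 ± 0.11 (log2, SE; edgeR adjusted p = 0.00167 and 0.003). The little-characterised genes D430019H16Rik, F730043M19Rik and Iffo2 also kept their calls, with log2 changes of 1.59 ± 0.21, 1.08 ± 0.20 and 0.77 ± 0.13.

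Several of the largest rises were less steady. Gabrr2, a GABA receptor subunit, had the largest log2 change among the genes called higher, 2.37 ± 0.55 (SE; edgeR adjusted p = 0.0419), on 6.15, 5.82, 1.94 and 1.40 CPM on high-fat day 14 and 0.407, 1.05, 0.329 and 1.34 CPM on chow. Its groups barely separate, and it lost the call in 6 of the 8 fits without 1 library. Dusp10, a phosphatase of stress-activated MAP kinases, had 75.5 to 96.4 CPM on day 14 and 9.42 to 43.7 CPM on chow (1.80 ± 0.44, edgeR adjusted p = 0.0497) and lost it in 7. Fam20c, a Golgi kinase of secreted proteins, rose by 1.5 ± 0.33 (log2, SE; edgeR adjusted p = 0.0346) and lost it in 6, Mageb18 rose by 1.70 ± 0.36 and lost it in 4, and Trim67 rose by 1.63 ± 0.31 and lost it in 3. Zfp423, a transcription factor of fat cell precursors, was the only called gene of 20 adipogenic transcription factors (0.47 ± 0.11, edgeR adjusted p = 0.0419, and 0.141 without chow replicate 4), while Pparg had a log2 change of 0.22 ± 0.17 (edgeR adjusted p = 0.550). Alas1, the first enzyme of heme synthesis, rose by 0.74 ± 0.16 (log2, SE; edgeR adjusted p = 0.0332, and 0.111 without chow replicate 4).

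Pth1r and Rassf6 kept their calls without chow replicate 4. Pth1r, the parathyroid hormone receptor, had 13.3, 13.3, 8.66 and 7.31 CPM on high-fat day 14 and 37.5, 29.5, 18.8 and 31.8 CPM on chow, and fell by 1.43 ± 0.24 on the log2 scale (edgeR adjusted p = 0.00756). It kept its call in all 8 fits without 1 library. Rassf6, of the RASSF family, had 0.308 to 0.933 CPM on day 14 and 1.63 to 7.54 CPM on chow. Its log2 change was -3.30 ± 0.77 (edgeR adjusted p = 0.0428, and 0.0491 without chow replicate 4), but the call was lost in 6 of the other fits. On days 2, 4 and 6 Rassf6 averaged 0.687, 0.227 and 0.658 CPM, so its chow level helped it pass the low-count filter. A call on such a gene is weaker evidence of a fall. Lrtm1 had a log2 change of -2.0 ± 0.48 (edgeR adjusted p = 0.0497) and lost its call in 7 of the 8 fits, among them the fit without chow replicate 4 (log2 change -2.17, edgeR adjusted p = 0.0777).

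Several of the largest falls were smaller, and most of those named here lost their call, without chow replicate 4. Lcn2, a lipocalin of epithelia and inflamed fat, measured 4.23, 2.57, 2.39 and 3.11 CPM on high-fat day 14 and 6.63, 8.60, 4.58 and 113 CPM on chow. The groups did not overlap, but most of the fitted log2 change of -3.41 ± 0.81 (edgeR adjusted p = 0.0479) came from that library: without it the change was -1.05 with an edgeR adjusted p = 0.247. That library was also high for Acot1, an acyl-CoA thioesterase (9.32 CPM in that library and 0.931 to 1.05 CPM in the other chow libraries), Rap1gap, a GTPase regulator (18.9 and 1.51 to 2.18 CPM), and the epithelial adhesion gene Perp (16.7 and 2.66 to 3.49 CPM). On day 14 Acot1 had 0.192 to 0.376 CPM, below every chow library. It averaged 0.888, 0.351 and 0.360 CPM on days 2, 4 and 6, so its chow level also helped it pass the low-count filter. Without chow replicate 4 the log2 change was -1.74 for Acot1 (edgeR adjusted p = 0.131), -0.99 for Rap1gap (edgeR adjusted p = 0.202) and -0.97 for Perp (edgeR adjusted p = 0.14). Mpzl2, an epithelial adhesion gene with 18.7 CPM in that library, had an edgeR adjusted p = 0.0811 without it, and the lipid transfer gene Stard10, with 40.2 CPM, kept its call at 0.0415 with a log2 change of -1.18 in place of -2.52. However, Stard10 lost its call in 4 of the 8 fits without 1 library, those without day 14 replicate 1, 2, 3 or 4. There its edgeR adjusted p was up to 0.0917, and limma-voom did not call it. Cyp26b1, a retinoic acid hydroxylase that was not called (edgeR adjusted p = 0.0711), had 81.4 CPM in chow replicate 1 and 2.86 to 10.6 CPM in the other chow libraries, against 0.912 to 3.92 CPM on day 14.

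**Figure D4:**
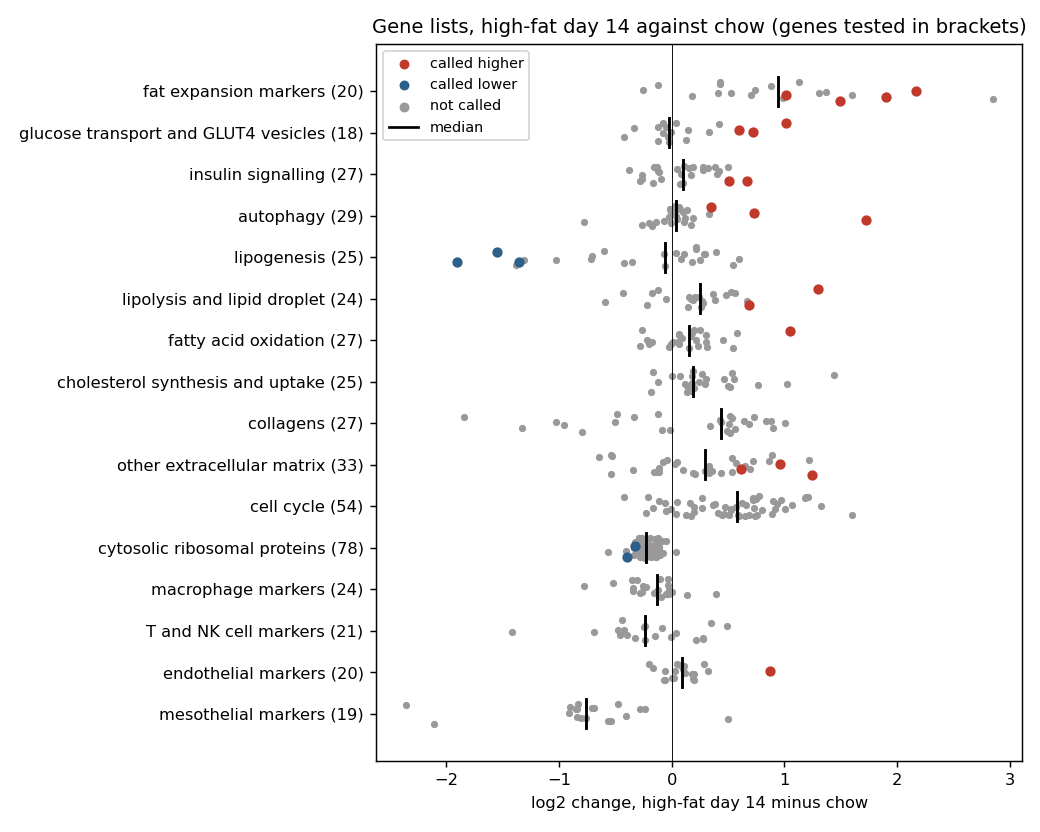
Each row is a gene list, each point the log2 change (high-fat day 14 minus chow, x axis) of a tested member, and each black line the list's median. Fat expansion markers have the highest median shown, 0.94, with 4 genes called higher (red), lipogenesis has 3 called lower (blue) about a median of -0.06, and mesothelial markers have the lowest median, -0.76, with none called.

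Markers of other cell types were called in few cases. No macrophage marker was called among 24, 3 of them positive, with a median of -0.13: Adgre1, the F4/80 antigen, had 33.4 to 48.3 CPM on high-fat day 14 and 42.8 to 52.4 CPM on chow (log2 change -0.23 ± 0.20), and Lyz2 had -0.12 ± 0.22. Among 18 markers of lipid-associated macrophages none was called either (median -0.24), and Itgax, the CD11c antigen of inflamed fat, had a log2 change of -0.16 ± 0.31 (edgeR adjusted p = 0.846). The monocyte chemokine Ccl2 had 20.5, 10.9, 6.04 and 19.9 CPM on day 14 and 3.02, 6.51, 2.18 and 2.43 CPM on chow, a log2 change of 2.14 ± 0.66 that was not called (edgeR adjusted p = 0.0969), with day 14 replicate 3 inside the chow range. No marker was called among 21 of T and NK cells (median -0.24), 11 of B cells (median 0.23) or 19 of fibroblasts and progenitors (median 0.11). The immunoglobulin gene Ighm had 590 to 1234 CPM on day 14 and 131 to 658 CPM on chow (1.41 ± 0.47, edgeR adjusted p = 0.118). Day 14 replicate 1 stood apart in these lists: its mean over the B cell markers lay 1.62 above the chow mean on the log2 scale, against -0.78, -0.61 and -1.12 in replicates 2 to 4 and -1.12 to 0.60 in the chow libraries. Over the T and NK cell markers it lay 0.55 above the chow mean, and replicates 2 to 4 lay between -1.09 and -0.26, with chow between -0.25 and 0.37. Lymph node and stromal follicle genes, of which 3 of 7 were tested, lay at 2.19 in replicate 1, at -0.68, -1.06 and -2.14 in replicates 2 to 4 and between -0.33 and 0.53 on chow. Their summed level was 0.933 to 18.5 CPM on day 14 and 2.91 to 10.7 CPM on chow, with Ccl21a, a chemokine of lymph node stroma, at 0 in all 8 libraries. The part of lymphoid markers in any other result was not tested. Mesothelial markers had a median of -0.76, with 18 of 19 negative and none called, and their part in any other result was not tested. In the mean over that list, day 14 replicates 3 and 4 lay 1.33 and 1.23 below the chow mean on the log2 scale and replicates 1 and 2 lay 0.25 and 0.41 below it.

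Ribosomal protein genes had small negative log2 changes in 77 of 78 cases, with a median of -0.23, and 2 fell, Rpl3 (279 to 293 CPM on high-fat day 14 and 356 to 394 CPM on chow, -0.40 ± 0.08, edgeR adjusted p = 0.0203) and Rpl23 (188 to 211 CPM on day 14 and 240 to 278 CPM on chow, -0.33 ± 0.07, edgeR adjusted p = 0.0188). DESeq2 called 35 of the 78 lower, and the edgeR count was 0 without chow replicate 4 or day 14 replicate 3. Processed copies of such genes could share their reads, which makes single values uncertain. All 14 heat shock genes and 22 of 25 immediate early genes had positive changes (medians 0.24 and 0.43), with none called. Fgf1, a growth factor gene that is induced in fat by feeding, had 97.3 to 128 CPM on day 14 and 127 to 139 CPM on chow (-0.26 ± 0.11, edgeR adjusted p = 0.240). The log2 change was positive for 46 of 54 cell cycle genes (median 0.58), none of them called: Mki67, a marker of dividing cells, had 28.7, 11.1, 21.7 and 13.2 CPM on day 14 and 10.3, 4.65, 15.9 and 8.32 CPM on chow, which overlap (0.90 ± 0.65, edgeR adjusted p = 0.5).

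Day 14 was also set against earlier days of the diet. Against day 6, edgeR called 0 of 15254 genes (0%), with 508 at an unadjusted p below 0.05, and DESeq2 and limma-voom called 0 as well, with 559 and 622. Against day 4, 1428 genes were called (9.36%), 699 higher on day 14 (4.58%) and 729 lower (4.78%). That count was 0 without day 4 replicate 2, 3 or 4 or day 14 replicate 1 or 2. It was 2641 without day 4 replicate 1 and 533 without day 14 replicate 4. How many genes were called against day 4 thus depends on which libraries are kept. Cell cycle genes made the clearest group: 52 of 54 were lower on day 14 than on day 4, with a median log2 change of -2.59. In each of the 8 fits without 1 library all 54 were negative, with medians between -2.97 and -2.38. None was called in 5 of those fits, where the list's smallest edgeR adjusted p lay between 0.0571 and 0.105. Mki67 averaged 18.7 CPM on day 14 and 145 CPM on day 4 (-2.92 ± 0.66, edgeR adjusted p = 0.0268). In the mean over the cell cycle list, day 4 replicate 1 lay 0.61 above the chow mean on the log2 scale and day 4 replicates 2 to 4 lay 3.08 to 3.31 above it.

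The comparisons with day 4 and with chow share the day 14 libraries, so their values are given side by side only. Map1lc3a averaged 192 CPM on day 14, 148 CPM on day 4 and 116 CPM on chow, and its log2 change between day 14 and day 4 was 0.37 ± 0.11 (edgeR adjusted p = 0.0449). Prelp averaged 1028 CPM on day 14, 601 CPM on day 4 and 434 CPM on chow (0.78 ± 0.22 between the days, edgeR adjusted p = 0.0367). Deptor averaged 262 CPM on day 14, 173 CPM on day 4 and 164 CPM on chow, and Plin4 averaged 5658 CPM on day 14, 4107 CPM on day 4 and 3521 CPM on chow. Elovl6 averaged 44.3 CPM on day 14, 113 CPM on day 4 and 129 CPM on chow (-1.36 ± 0.37 between the days, edgeR adjusted p = 0.0353). These calls between the days were unsteady over the 8 fits without 1 library. Map1lc3a and Plin4 lost theirs in 7, Deptor and Elovl6 in 6, and Prelp in 5. Trp53inp2, Trarg1, Mest and Lep were not called between the days, with log2 changes between day 14 and day 4 of -0.33 ± 0.20, 0.03 ± 0.12, -0.62 ± 0.36 and -0.56 ± 0.31. Insig1, a brake on sterol synthesis that was not called against chow (1.02 ± 0.47, edgeR adjusted p = 0.254), averaged 250 CPM on day 14, 886 CPM on day 4 and 123 CPM on chow (-1.83 ± 0.48 between the days, edgeR adjusted p = 0.0308). Its call between the days was lost in 6 of the 8 fits without 1 library. Of 25 cholesterol genes 9 were called lower on day 14 than on day 4, against 4.78% of all tested genes. No cholesterol gene was called lower in 6 of those fits.

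**Figure D5:**
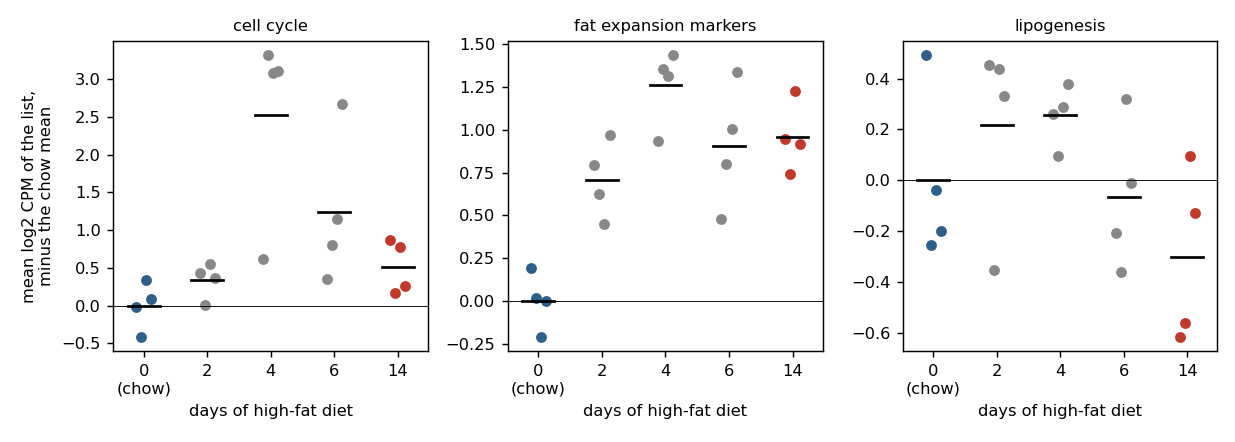
Mean log2 CPM over the genes of 3 lists in every library, minus the mean of the chow libraries (y axis), by days of high-fat diet (x axis, 0 is chow), with a line at each group's mean. The cell cycle list peaks on day 4 in 3 of 4 libraries and lies at 0.17 to 0.86 on day 14, fat expansion markers are above all chow libraries on every high-fat day, and the lipogenesis list has its lowest libraries on day 14.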

How the data were processed

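Per the labels, total RNA of mouse epididymal fat was isolated with a column kit and made into libraries with Illumina's TruSeq RNA kit. The data are the authors' raw read counts for each Ensembl gene and library, as deposited. Tools listed, without roles, in the submitters' processing notes are STAR, CASAVA, limma, featureCounts and R 3.0; the authors' genome build, annotation and strand setting are not given in the sources used here.

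From the deposited counts, genes with low counts were dropped by filterByExpr in edgeR (by group, with a minimum count of 10 and a minimum total of 15) and scaled by TMM in R 4.3.3. Differences were tested in edgeR 4.0.16 with the robust quasi-likelihood F test, 1 fit of all 20 libraries by group with 15 residual degrees of freedom and a common biological coefficient of variation of 0.209. P-values were Benjamini-Hochberg adjusted over all 15254 tested genes and called below 0.05, and they measure the spread between these libraries. Standard errors came from the F statistic. Symbols were matched by Ensembl ID for 37607 of 39179 IDs; IDs without one held 0.139% of counts, and 141 of them were tested.

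Named genes were, among called genes whose groups did not overlap and whose mean reached 1 CPM, the 10 largest rises and 10 largest falls, the 10 smallest adjusted p, a fixed panel, up to 4 called members of each list (2 of the highest level where none was called), and the 5 largest rises and falls against day 4. Some genes that this rule names are not reported here. The comparison, lists and panel were chosen with earlier results of these data known. Genes named for keeping their call in all fits without 1 library were picked after their values were seen. No gene is reported with a fitted change where a group had at most 3 reads; the ratio there has an exact 95% counting interval.

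Alternatives were DESeq2 1.42.0, limma-voom (limma 3.58.1), other scalings and filters, fits of the 8 libraries alone, the replicate number as a block, the library number as a covariate, stricter thresholds and leaving out each library. Leaving out chow replicate 4 and day 2 replicate 1 together was chosen after seeing the data. The steps were tested on simulated counts.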

Additional observations from a re-analysis of the deposited data

Results flagged for a closer look

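Of 190 groups of 4 libraries checked gene by gene, 15 had a library far from the other 3. The genes were those named in the text, some of them because 1 library stood out, and they share the same libraries. A group with reads in 1 library only is always flagged. No chance rate therefore applies to this count. Chow replicate 4 was that library in 9 of them: it stood high for Acot1 (9.32 CPM), Lcn2 (113 CPM), Rap1gap (18.9 CPM), Stard10 (40.2 CPM), Mpzl2 (18.7 CPM), Perp (16.7 CPM), Lrp2 (194 CPM) and Cuzd1 (80.1 CPM), and low for Map1lc3a (96.8 CPM). Chow replicate 1 stood high for Acly (3830 CPM), Acaca (2280 CPM) and Cyp26b1 (81.4 CPM), and chow replicate 2 low for Pigu (25.6 CPM). On high-fat day 14, replicate 1 held the only read of Slc2a5 (0.0385 CPM) and replicate 4 the only reads of Cuzd1 (1.55 CPM).

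The change from chow differed between day 14 and day 4 for the following genes, by edgeR's quasi-likelihood test of day 14 minus day 4 with an adjusted p between 0.0268 and 0.0472. Higher on day 14 were Nnat (log2 difference 3.30), Prtn3 (3.07), Mycl (2.87), Irs2 (1.46), Adipoq (1.07), Prelp (0.78), Deptor (0.59), Plin4 (0.46) and Map1lc3a (0.37). Lower on day 14 were Myh7b (-3.56), Pbk (-3.27), Neil3 (-3.16), Hephl1 (-3.13), Depdc1b (-3.05), Mki67 (-2.92), Insig1 (-1.83), Elovl6 (-1.36) and Col6a3 (-1.19). Pbk, Neil3, Depdc1b and Mki67 are known from dividing cells. All of these differences rest on a comparison that called no gene without day 4 replicate 2, 3 or 4.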

How the results depend on the processing

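The count of genes differing from chow, 180 (134 higher, 46 lower), was 96 (77 and 19) with no low-count filter, 659 (381 and 278) with DESeq2, 79 (62 and 17) in a fit of the 8 compared libraries alone, 37 (33 and 4) at an adjusted p below 0.01, 64 (35 and 29) with a log2 change beyond 1, and 37 (31 and 6) without chow replicate 4 and day 2 replicate 1. Library size as the only scaling gave 143 (65 and 78). Without 1 library it lay between 45 and 482, with 41 to 254 higher and 4 to 228 lower. With a replicate block the count was 235 (177 and 58) over 20 libraries and 0 (0 and 0) over the 8 alone, which leaves few degrees of freedom. The labels state no pairing by replicate number, and these values are too few to tell whether there is one. Same-numbered day 14 and chow libraries deviated together with correlations of 0 to 0.21. Day 14 replicates 2 and 4 matched the chow library of their own number best, while replicates 1 and 3 did not. Between any groups, libraries numbered replicate 1 correlated at -0.19 to 0.52. Library numbers largely follow the replicate number, and whether replicates mark a batch was not tested. Against day 4 the count of 1428 was 441 (220 and 221) with no filter and between 0 and 2641 without 1 library, with 0 to 1253 higher and 0 to 1388 lower. Signs turned for uncalled genes: over the fits without 1 library the log2 change of Slc2a4 lay between -0.211 and 0.013, of Irs1 between -0.268 and 0.011, of Itgax between -0.353 and 0.023 (0.054 by limma-voom) and of Lyz2 between -0.219 and 0.05. The causes were not tested. Genes under about 1 CPM rest on few reads in the smaller libraries, so their changes are imprecise.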
